A study of Rattus norvegicus with 2 samples.

Results

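Heat shock proteins and their J-domain partners were examined as a set of chaperone genes in a chromatin immunoprecipitation sequencing (ChIP-seq) peak list from rat myocardium. The set holds every gene whose name in the deposited annotation starts with Hspa, Hspb, Hspd, Hspe, Hsph, Hsp90, Dnaja, Dnajb or Dnajc followed by a digit or the letter a. It came to 29 of 8094 gene names and 77 of 28706 peaks. The name rule leaves out the endoplasmic reticulum chaperone Hsp90b1 and the small heat shock protein gene Cryab, which are given below as relatives. Male Wistar rats had the abdominal aorta tied together with a 0.7 mm wire above the renal arteries. This surgery loads the heart with pressure. For this model the labels hold 1 ChIP library and 1 input library, both numbered 3, and give no age of the rats. All peaks come from the ChIP library. Its antibody is labelled only by vendor and catalogue number, and the series title points to lactylated lysine 18 on histone H3 (H3K18la). Values of the input and of unoperated or stimulated rats were not analysed here, so no group was compared with another and no value has a replicate error.

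Chaperones keep proteins folded. HSP70 proteins grip unfolded stretches of other proteins, DNAJ proteins deliver these clients and drive the ATP cycle of HSP70, and HSP110 proteins and BAG proteins release them. HSP90 completes the folding of kinases and steroid receptors, and small heat shock proteins hold unfolding proteins without using ATP. Some family members are made at all times (constitutive), and others are induced when heat shock factor binds heat shock elements, which are inverted repeats of GAA, in their promoters. Heart muscle is known for high levels of several small heat shock proteins, which bind to filaments and the Z-disc.

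The promoters of 9 family genes are shown because they carry the elements by which heat shock factor is known to act, or because a strong peak lies over the start of the gene. The sequences run 5′ to 3′ from 250 bases before to 50 bases after the start of the gene, from RefSeq with build GRCr8, which is not the build of the peaks (rn6). Capitals mark every match to the heat shock element pairs GAANNTTC and TTCNNGAA.
Hspa8 (chr8:50080264-50080563, plus strand): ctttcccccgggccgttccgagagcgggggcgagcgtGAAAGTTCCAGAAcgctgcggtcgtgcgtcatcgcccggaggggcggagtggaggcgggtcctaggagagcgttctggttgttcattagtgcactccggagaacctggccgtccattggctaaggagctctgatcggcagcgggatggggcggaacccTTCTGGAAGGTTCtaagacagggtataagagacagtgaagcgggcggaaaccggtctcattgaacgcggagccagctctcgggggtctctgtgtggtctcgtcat
Dnaja1 (chr5:60638154-60638453, plus strand): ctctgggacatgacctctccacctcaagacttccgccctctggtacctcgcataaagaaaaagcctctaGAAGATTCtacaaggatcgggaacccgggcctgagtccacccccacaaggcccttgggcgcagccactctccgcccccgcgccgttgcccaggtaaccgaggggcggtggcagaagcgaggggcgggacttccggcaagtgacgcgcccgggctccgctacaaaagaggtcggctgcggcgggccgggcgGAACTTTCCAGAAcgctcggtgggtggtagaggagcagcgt
Hspb1 (chr12:26432252-26432551, minus strand): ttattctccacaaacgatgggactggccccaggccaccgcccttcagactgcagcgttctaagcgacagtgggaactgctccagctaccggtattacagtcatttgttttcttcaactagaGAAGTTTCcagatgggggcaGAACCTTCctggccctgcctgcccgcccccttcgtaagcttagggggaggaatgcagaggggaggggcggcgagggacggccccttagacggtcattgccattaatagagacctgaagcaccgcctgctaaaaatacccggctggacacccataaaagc
Hspb6 (chr1:94934122-94934421, plus strand): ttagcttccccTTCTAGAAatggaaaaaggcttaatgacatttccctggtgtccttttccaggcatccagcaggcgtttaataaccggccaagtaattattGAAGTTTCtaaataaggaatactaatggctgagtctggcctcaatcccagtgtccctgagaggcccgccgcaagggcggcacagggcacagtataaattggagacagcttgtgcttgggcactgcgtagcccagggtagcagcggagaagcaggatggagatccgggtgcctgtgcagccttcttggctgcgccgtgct
Dnajb1 (chr19:41431092-41431391, minus strand): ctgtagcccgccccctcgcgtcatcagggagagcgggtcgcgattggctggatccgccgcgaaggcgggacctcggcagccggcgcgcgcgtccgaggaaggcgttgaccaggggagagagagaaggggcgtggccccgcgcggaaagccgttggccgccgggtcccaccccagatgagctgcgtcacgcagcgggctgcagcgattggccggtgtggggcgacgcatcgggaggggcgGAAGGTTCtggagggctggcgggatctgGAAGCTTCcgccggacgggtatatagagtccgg
Hsp90ab1 (chr9:22930173-22930472, plus strand): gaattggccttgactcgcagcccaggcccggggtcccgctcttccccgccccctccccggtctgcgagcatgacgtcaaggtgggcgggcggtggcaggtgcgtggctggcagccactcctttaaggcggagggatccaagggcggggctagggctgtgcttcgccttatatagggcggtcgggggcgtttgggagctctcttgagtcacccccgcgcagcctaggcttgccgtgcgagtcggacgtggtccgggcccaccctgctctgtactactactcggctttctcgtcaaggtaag
Dnajb5 (chr5:61972456-61972755, plus strand): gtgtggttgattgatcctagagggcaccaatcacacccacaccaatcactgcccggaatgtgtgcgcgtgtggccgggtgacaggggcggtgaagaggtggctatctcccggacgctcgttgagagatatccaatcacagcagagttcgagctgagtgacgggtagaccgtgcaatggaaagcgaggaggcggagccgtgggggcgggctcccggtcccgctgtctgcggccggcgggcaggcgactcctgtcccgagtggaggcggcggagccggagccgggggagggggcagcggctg
Hspe1 (chr9:64084077-64084376, plus strand): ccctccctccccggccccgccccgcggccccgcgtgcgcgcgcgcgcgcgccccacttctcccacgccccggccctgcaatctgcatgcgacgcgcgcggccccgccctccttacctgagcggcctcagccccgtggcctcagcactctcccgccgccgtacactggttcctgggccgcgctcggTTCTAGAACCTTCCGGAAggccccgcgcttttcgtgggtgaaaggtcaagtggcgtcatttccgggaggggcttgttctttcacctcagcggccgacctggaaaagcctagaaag
Hsph1 (chr12:10427118-10427417, plus strand): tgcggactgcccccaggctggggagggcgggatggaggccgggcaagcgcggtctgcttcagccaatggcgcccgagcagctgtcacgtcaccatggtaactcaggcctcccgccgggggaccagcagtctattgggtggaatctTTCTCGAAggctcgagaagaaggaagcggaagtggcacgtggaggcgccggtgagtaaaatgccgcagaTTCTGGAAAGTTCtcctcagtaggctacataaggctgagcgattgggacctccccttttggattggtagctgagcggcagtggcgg
The first 7 genes had peaks. Hspe1 and Hsph1 had none.

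The 3-unit form of the element joins both pairs, GAANNTTC and TTCNNGAA, so that they share a GAA or TTC unit, and was searched on both strands. It therefore overlaps the pairs counted below. It was in the promoters of Hspa8 and Dnaja1, 2 of the 24 members with an entry in the promoter table (8.33%), and in 103 of all 19005 protein-coding promoters of the same length (0.542%). It was also in 3 of 35 family promoters whose gene had no peak (8.57%), those of Hspd1, Hspe1 and Hsph1. Hspd1 and Hspe1 are neighbours on opposite strands whose promoter windows overlap, and their matches to this element are the same bases, so 1 stretch is counted for both here and in the pair counts below. Counting the start of the gene as 0, Hspa8 held GAAAGTTCCAGAA from -213 to -201 and TTCTGGAAGGTTC from -55 to -43, and Dnaja1 held GAACTTTCCAGAA from 9 to 21. The pair GAANNTTC stood in 8 of 24 member promoters (33.3%), 5 of 35 family promoters without a peak (14.3%) and 7.76% of all promoters. The pair TTCNNGAA stood in 6 of 24 (25%), 4 of 35 (11.4%) and 7.79%. Member promoters held the GC box GGGCGG in 21 of 24 (87.5%), family promoters without a peak in 22 of 35 (62.9%) and all promoters in 43.1%. The endoplasmic reticulum stress element, which is CCAAT, 9 bases of any kind and CCACG, was in the promoter of Dnajc3, a member, in that of Hspa5, which had no peak, and in 0.0947% of all promoters. The members with no entry, left out of these counts, were Hsp90aa1, Hspb2, Dnaja2, Dnajb4 and Dnajc12. Of the heat-inducible HSP70 genes, Hspa1b had no entry either, and the window of Hspa1a held no element pair. That window is set by the RefSeq start of Hspa1a, and sequence outside it was not searched. A lack of elements at Hspa1a is therefore not shown. A match describes these letters and does not show that a factor binds there.

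Each peak has a fold enrichment, the deposited ratio of its signal to the local background, and a −log10 q. Both were set by the authors for each peak and are used here to describe and rank peaks within this list. The annotation gives each peak the nearest transcription start site (TSS), the signed distance from its centre to that TSS (negative is upstream) and a class. In bulk tissue, fewer cells that carry the mark and less of the mark per cell cannot be told apart. Of markers set for the tissue, 10 of 15 cardiomyocyte genes had a peak, as had 8 of 10 endothelial, 3 of 10 hepatocyte, 2 of 10 neuronal, 2 of 10 fibroblast and 1 of 10 immune genes, against 27.1% of all protein-coding genes. The hepatocyte, neuronal and fibroblast counts were near that share. No peak carried the names of the cardiomyocyte genes Ryr2, Ttn, Myh6, Tbx5 and Tnnc1.

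Heat shock protein genes carried peaks at a larger share than protein-coding genes as a whole, and DNAJ genes at a similar share. The gene table held 75 protein-coding genes that fit the name rule, of which 29 had a peak (38.7%, 95% Clopper-Pearson interval 27.6 to 50.6%), against 27.1% of all 23154 protein-coding genes. Among HSP names the count was 15 of 28 (53.6%, 33.9 to 72.5%), and among DNAJ names 14 of 47 (29.8%, 17.3 to 44.9%). The HSP names take in Hspbap1, which is not a small heat shock protein, and the entries Hspd1l1 and Hspd1l2. The DNAJ names take in Dnajc17l1 and Dnajb6-ps4. None of these entries had a peak. A promoter-TSS peak stood at 9 of 28 HSP genes (32.1%) and 9 of 47 DNAJ genes (19.1%), against 9.88% of all genes. The centre of a peak fell less than 1000 bp from the TSS at 13 of 28 HSP genes (46.4%) and 11 of 47 DNAJ genes (23.4%), against 17.1%. A peak of at least 6-fold stood at 5 of 28 HSP genes (17.9%) and 1 of 47 DNAJ genes (2.13%), against 4.17%. Within the DNAJ genes, peaks stood at 3 of 4 DNAJA names, 7 of 14 DNAJB names and 4 of 29 DNAJC names (13.8%, 3.89 to 31.7%). Of the 8094 names with a peak 77.5% matched the gene table, and every member did. Any unmatched name of a protein-coding gene lowers the share of all genes but not that of the family. The share of all genes may therefore be too low, and the gaps too wide. With 1 library none of these differences was tested, and the intervals cover counting error only.

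**Figure D1:**
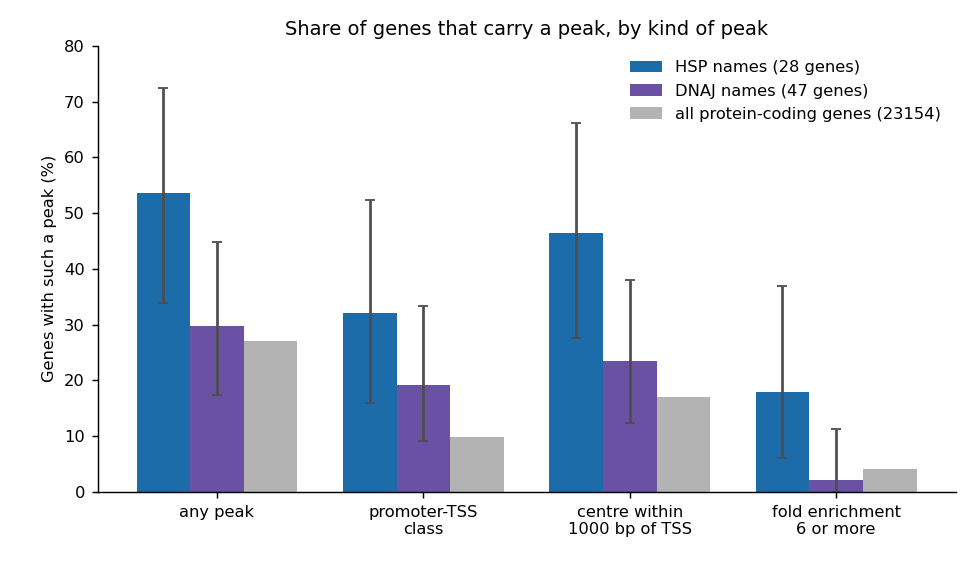
Share of genes (%, y axis) with a peak of each kind (x axis), for the 28 HSP and 47 DNAJ names of the gene table and for all 23154 protein-coding genes. Error bars are 95% Clopper-Pearson intervals; HSP names stand above the grey bars in all 4 kinds, at 53.6% against 27.1% for any peak.

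A larger share of the chaperone peaks than of other peaks lay near a start site, though most did not, and their median strength was close to that of other peaks. Of the 77 peaks, 19 were of the promoter-TSS class (24.7%, 95% Wilson interval 16.4 to 35.4%), against 2788 of the 28629 other peaks (9.74%). Within 1000 bp of the TSS stood 30 of the 77 (39.0%, 28.8 to 50.1%), 15 with the centre upstream and 15 downstream, against 19.3% of the other peaks. Beyond 10 kb stood 27 (35.1%), against 57.4%. Introns held 23 of the 77 (29.9%, against 43.8% of the others) and intergenic sequence 22 (28.6%, against 41.2%). Exons held 9 (11.7%, 6.27 to 20.7%, against 3.51%). Transcription termination sites (TTS) held 4 (5.19%, 2.04 to 12.6%, against 1.66%). Median fold enrichment was 4.09 (quartiles 3.54 and 4.72) over the 77 peaks and 4.13 (3.62 and 4.79) over the others. Median width was 432 bp, against 375 bp.

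**Figure D2:**
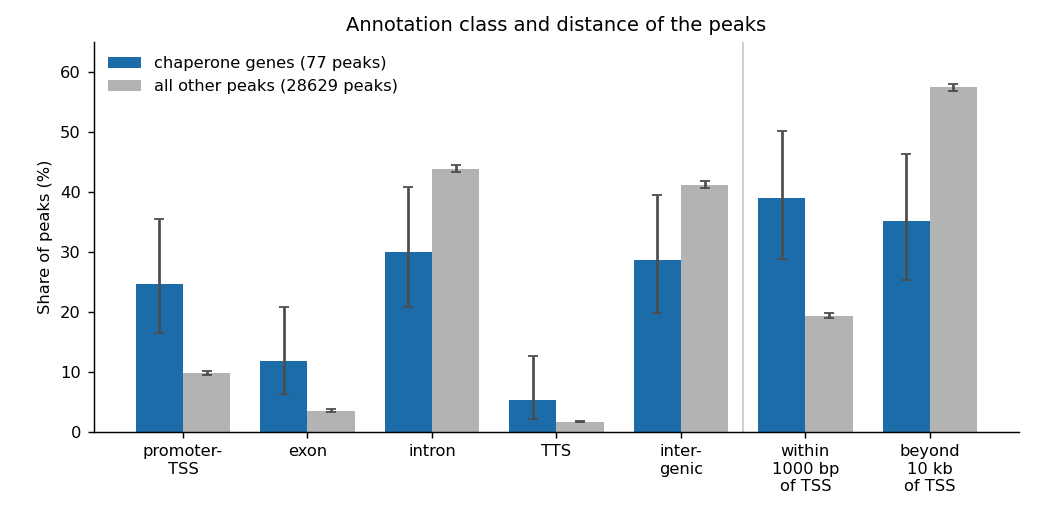
Share of peaks (%, y axis) by annotation class and by distance from the TSS (x axis), for the 77 peaks of the chaperone genes and the 28629 other peaks, with 95% Wilson intervals. Promoter-TSS peaks make up 24.7% of the chaperone peaks and 9.74% of the others.

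Members differed widely among themselves. The strongest peak of a gene was from 3.12-fold at Dnajc14 to 7.87-fold at Hspa8, with a median of 4.72 over the 29 members, against 4.64 over all named genes. It reached 6-fold at 6 members, Hspa8, Hspb6, Hsp90ab1, Hspb1, Dnajb5 and Hspb7, and stayed under 4-fold at 9. There were 13 members with 1 peak (44.8%, against 45.0% of all named genes), 6 with 2 and 10 with 3 or more. A gene with more peaks has more chances of a strong one. Among genes with 3 or more peaks the median strongest fold was 5.80 over members and 5.48 over all named genes, and among genes with 1 peak it was 3.66 over members and 4.07 over all named genes. The median strongest fold was 5.03 over the 15 HSP members and 4.16 over the 14 DNAJ members.

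**Figure D3:**
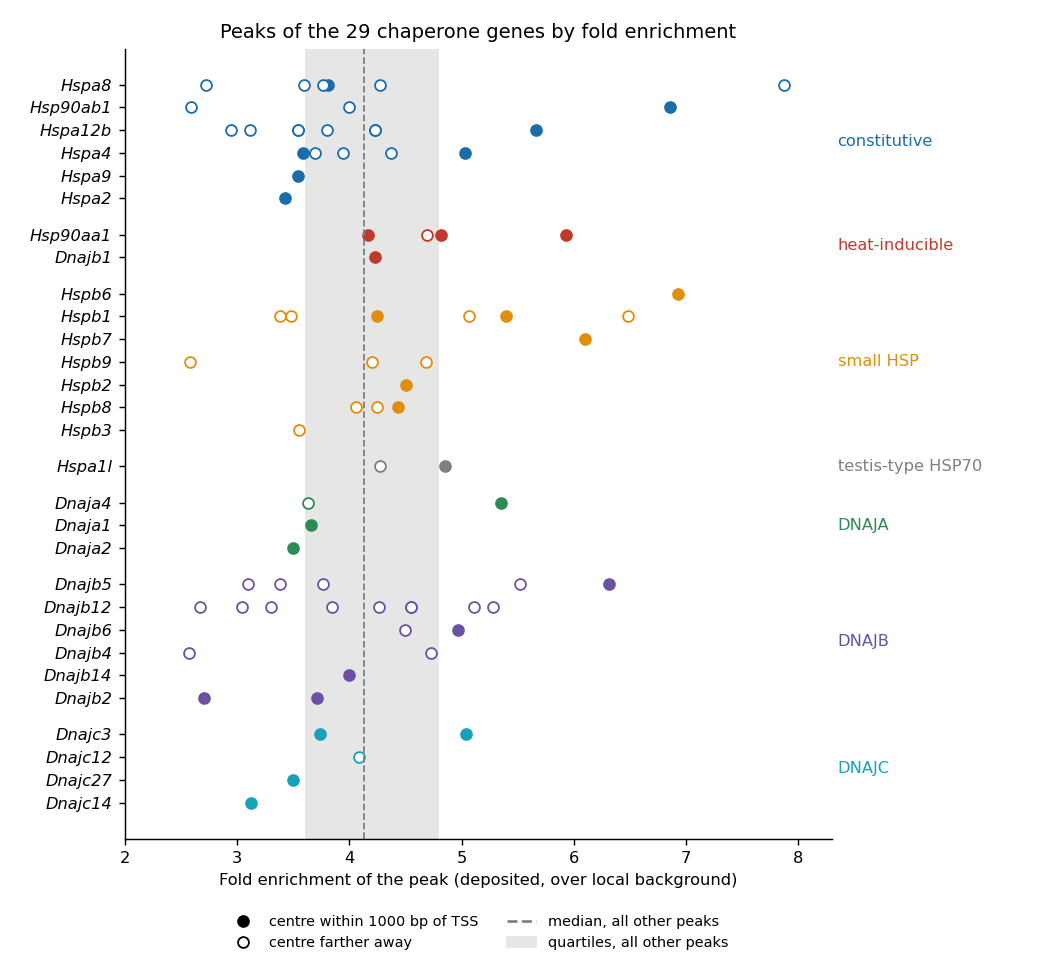
Every peak of the 29 genes by fold enrichment (x axis), 1 row per gene, coloured by group. Filled points have their centre within 1000 bp of the TSS, open points lie farther away; the dashed line and band are the median (4.13) and quartiles (3.62 and 4.79) of all other peaks. Hspa8 at 7.87-fold is the strongest point and is an open one.

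Among chaperones grouped here as constitutive, Hspa8 and Hsp90ab1 reached 6-fold. The strongest peaks of the others with a peak were from 3.43-fold at Hspa2 to 5.66-fold at Hspa12b. Hspa8 encodes HSC70, the HSP70 made in all cells. Its strongest peak was intergenic, 2136 bp upstream of the TSS (chromosome 8, 44986797 to 44988959), 2163 bp wide, with 7.87-fold enrichment and −log10 q of 23.4. This ranked 260 of 28706 peaks, within the top 0.906%. Its summit lay 1459 bp upstream of the TSS. A gap of 531 bp separated it from the promoter peak (44989491 to 44990162, centre at -188, 3.81-fold), which spanned the TSS from -524 to 148. The strong peak stood beside the promoter, not over it. The other 4 peaks named Hspa8 lay in a transcript of Clmp, the neighbouring gene. They stood 14771 bp (3.60-fold) and 16075 bp (3.76-fold) upstream in its exon 7, 19941 bp (2.73-fold) upstream in its intron 5 and 62506 bp (4.28-fold) upstream in its intron 1.

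Hsp90ab1, the constitutive HSP90, had 6.86-fold at its promoter with −log10 q of 15.8, in a peak 1811 bp wide (chromosome 9, 17816604 to 17818414) reaching from -1118 to 694. It ranked 727 in the list, and its summit lay 334 bp downstream of the TSS. Weaker intergenic peaks stood 13638 bp (4.0-fold) and 15699 bp (2.59-fold) upstream. A neighbour in the gene table, the nucleoside transporter gene Slc29a1, had 5 peaks. Hspa12b, an atypical HSP70 known from endothelial cells, had 8 peaks. The strongest was its promoter peak of 5.66-fold (chromosome 3, 123669386 to 123670903), which covered the TSS from -890 to 628. Upstream of it stood peaks of 4.23-fold at -3738, 4.23-fold at -2954 and 3.55-fold at -1225. Inside the gene, exon 2 held 3.11-fold at 6509, intron 2 held 2.95-fold at 7889, intron 7 held 3.54-fold at 12643 and exon 8 held 3.80-fold at 13307. None of these 7 reached the strength of the promoter peak. Hspa4, an HSP110-type exchange factor, had peaks on both sides of its TSS, of 5.03-fold at -674 (chromosome 10, 38642863 to 38643280) and of 3.59-fold at 346. Between them 642 bp around the TSS held no peak. Farther upstream, intergenic peaks had 3.94-fold at -5285, 3.69-fold at -6625 and 4.37-fold at -7206.

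Hspa2, an HSP70 known from male germ cells, had 1 promoter peak of 3.43-fold at -505 (chromosome 6, 99432931 to 99433160). Hspa9, the mitochondrial HSP70, had 1 peak of 3.54-fold in intron 1 (chromosome 18, 27748567 to 27749182), 361 bp downstream of the TSS. Their ranks by fold were 22888 and 22159 of 28706. No peak carried the names of Hspd1 and Hspe1, which encode the mitochondrial chaperonin HSP60 and its partner, or of Hspa5 and Hspa13, the HSP70 genes of the endoplasmic reticulum. Hspa4l, Hspa12a and Hspa14 also had none.

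Heat-inducible genes had peaks at 2 of 5 (40%, 5.27 to 85.3%), against 27.1% of all protein-coding genes, a share well within that interval. Hsp90aa1, the inducible HSP90, had 4 peaks, of which 3 lay within 1000 bp of its TSS and none over it. They had 4.81-fold at -500, 5.93-fold at 306 in intron 1 (chromosome 6, 135112318 to 135112620) and 4.16-fold at 773 in exon 2, and 555 bp around the TSS were free of peaks. The fourth peak, 8711 bp upstream, had 4.70-fold. Dnajb1, which encodes HSP40, the inducible partner of HSP70, had 1 promoter peak of 4.23-fold at -450 (chromosome 19, 24746521 to 24746936). It ended 242 bp short of the TSS. In the promoter sequence printed above, the GAANNTTC matches of Dnajb1 lie from -11 to -4 and from 17 to 24 about the RefSeq start. No peak carried the names of Hsph1, the inducible HSP110, or of Hspa1a and Hspa1b, the inducible HSP70 genes.

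For Hspa1a, a lack of peaks and the naming of peaks cannot be told apart. Hspa1l, an HSP70 gene of male germ cells and the neighbour of Hspa1a, had 4.85-fold in a peak classed as its promoter (chromosome 20, 4959100 to 4959602). The peak ran from -194 to 308 about the annotated TSS. A second peak of 4.28-fold stood in intron 1 at 1017 (4960091 to 4960532). In RefSeq's GRCr8 the starts of Hspa1l and Hspa1a are 467 bp apart on opposite strands, with Hspa1l on the minus strand. Distances in the peak annotation instead rise along the chromosome, as for a gene on the plus strand. The sides given here therefore hold for the peak annotation alone. Whether the peaks belong to Hspa1l or to Hspa1a cannot be read from the assigned name. Hspa1a and Hspa1b are also near-identical copies, between which reads can be split, so their lack of a peak is uncertain.

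Small heat shock genes that fit the name rule in the gene table all carried a peak, and 3 of the 6 members that reached 6-fold were among them. Hspb10 was not in the table under that name and is not counted. All 7 had a peak of any class (59.0 to 100%), against 27.1% of all protein-coding genes. For Hspb3 and Hspb9 no peak lay within 1000 bp of the TSS, and those named Hspb9 lay inside Rab5c. A peak within 1000 bp of the TSS stood at 5 (71.4%, against 17.1% of all genes) and one of the promoter class at 2 (28.6%, against 9.88%). A peak of at least 6-fold stood at 3 (42.9%, 9.90 to 81.6%, against 4.17%). Hspb6 encodes HSP20, a heart and smooth muscle protein that protein kinase A phosphorylates. Its only peak had 6.93-fold and −log10 q of 11.1 (chromosome 1, 89007986 to 89008613), and ranked 694. It covered the TSS from -132 to 496, although the annotation classed it as the TTS of a transcript that it does not pair with a gene name. Hspb7, the cardiovascular small heat shock protein that binds filamin C, also had 1 peak, of 6.10-fold and 1124 bp in intron 1 (chromosome 5, 159967983 to 159969106). It lay downstream of the TSS, from 143 to 1267.

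Hspb1 encodes the small heat shock protein HSP27 (Hsp25 in rodents), which heat also induces, and it had 6 peaks. The strongest was intergenic, 8067 bp upstream, with 6.48-fold (chromosome 12, 23848619 to 23849614). Around the TSS stood a peak of 5.40-fold at -610 and one of 4.24-fold in exon 1 at 488, with 718 bp free of peaks between them. The GAANNTTC matches of its promoter, from -129 to -122 and from -109 to -102 about the RefSeq start, fall in that gap if both builds place the TSS alike. This is unlike Hspa8, where the promoter peak reached over both element sites on the same condition. Downstream of the gene, peaks had 5.07-fold at 12286, 3.48-fold at 21380 and 3.38-fold at 22752, where the class was TTS. Ywhag, a neighbour in the gene table, had 3 peaks of its own.

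Hspb8, the partner of the co-chaperone BAG3, had 4.43-fold in exon 1 at 230 (chromosome 12, 45905372 to 45905831) and weaker peaks in intron 2, of 4.25-fold at 10502 and 4.06-fold at 11889. Hspb2, a muscle protein that binds myotonic dystrophy protein kinase, had 1 peak of 4.51-fold (chromosome 8, 55177348 to 55177994) that covered its TSS from -176 to 470. The annotation classed this peak as the promoter of a transcript of the neighbour Cryab, so its class and its name point to different genes. Which of these genes the peak belongs to was not tested. Cryab, the αB-crystallin gene of heart and lens, had 2 further peaks, of 3.64-fold at 801 and 4.36-fold at 1337, both in intron 1. Hspb3, a muscle small heat shock protein, had only a weak intergenic peak of 3.55-fold, 28856 bp upstream (chromosome 2, 45547143 to 45547574). Its neighbour Snx18 had 12 peaks. The 3 peaks named Hspb9, a testis gene, lay inside intron 1 of Rab5c, with 4.68-fold at 6874, 2.58-fold at 8124 and 4.20-fold at 11461.

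Set side by side, the 3 groups overlapped in strength, and no difference between them was tested. The strongest peak per gene had a median of 5.35-fold over 6 constitutive genes (range 3.43 to 7.87), 5.08-fold over 2 inducible genes (4.23 and 5.93) and 4.68-fold over 7 small heat shock genes (3.55 to 6.93). The constitutive list of 11 genes holds HSP70 and HSP110 genes taken as constitutive or not heat-inducible, Hsp90ab1 and the mitochondrial chaperones. It leaves out Hspa5, Hspa13 and Hspa1l. Its name is loose, since it takes in Hspa2, known from male germ cells, and Hspa12b, known from endothelial cells. It also takes in Hspd1 and Hspe1, whose promoters hold the 3-unit heat shock element. Per gene with a peak, constitutive genes had a median of 4 peaks and 2401.5 bp under peaks, inducible genes 2.5 peaks and 720 bp, and small heat shock genes 1 peak and 1124 bp. Of the 6 peaks of Hspa8, 4 lie in Clmp. Over all genes of each list in the gene table, a peak centre lay within 1000 bp of the TSS at 6 of 11 constitutive (54.5%, 23.4 to 83.3%), 2 of 5 inducible (40%, 5.27 to 85.3%) and 5 of 7 small heat shock genes (71.4%, 29 to 96.3%). These Clopper-Pearson intervals overlap widely, and the share over all protein-coding genes was 17.1%. The order of the medians was not stable. Over all peaks of each group it was 3.78-fold for constitutive, 4.70-fold for inducible and 4.34-fold for small heat shock genes, and with peaks beyond 10 kb left out the small heat shock genes came first at 5.39-fold.

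Peaks met start sites in more than 1 way. Of the 24 members with a peak within 1000 bp, 12 had a peak over the TSS itself (50%, 95% Wilson interval 31.4 to 68.6%), against 1699 of 4363 other named genes (38.9%). Hspb8 was counted among the 12 with a peak whose edge only meets the TSS (0 to 460). The like peak of Dnaja4 (0 to 298, rounded) fell just short and was not counted. Peaks on both sides with none over the TSS were found at 4 members, Hsp90aa1, Hspa4, Hspb1 and Dnajb2 (16.7%, 6.68 to 35.9%), against 9.67% of the other genes. The free stretch was from 395 bp at Dnajb2 to 718 bp at Hspb1. At Dnajc3 peaks also stood on both sides, and the downstream one covered the TSS. Since these intervals take in the background shares, no difference from other genes is shown.

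**Figure D4:**
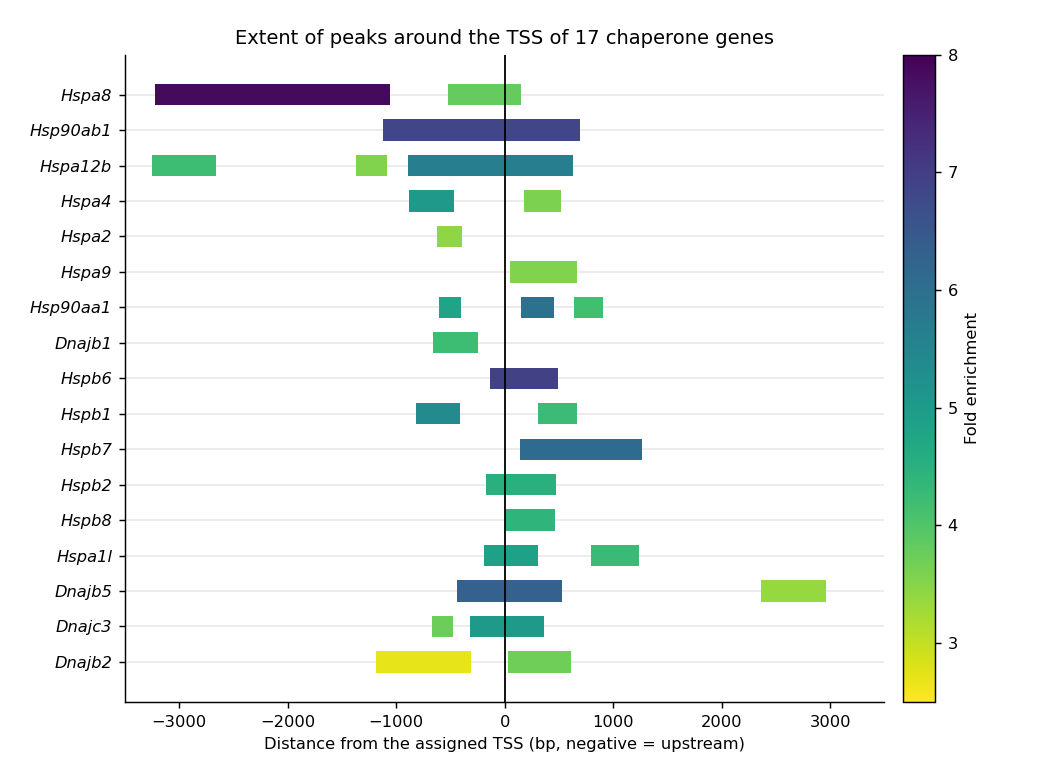
Extent of peaks within 3500 bp of the TSS (x axis, bp, negative is upstream) for selected HSP and DNAJ genes, 1 row per gene, coloured by fold enrichment. The peak of Hsp90ab1 spans the TSS from -1118 to 694, while the peaks of Hsp90aa1, Hspa4 and Hspb1 leave 555, 642 and 718 bp around it free.

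Among J-domain genes, Dnajb5 had the strongest peak, and DNAJB members held 22 of the 31 peaks, 9 of them at Dnajb12. Dnajb5 encodes an HSP40 co-chaperone that in mouse heart takes part in the redox control of class II histone deacetylases. Its promoter peak had 6.31-fold and −log10 q of 12.6 (chromosome 5, 58393161 to 58394128), ranked 1306, and covered the TSS from -443 to 525. Downstream stood peaks of 3.38-fold at 2664 in intron 1, 5.52-fold at 4932 and 3.10-fold at 5559 in intron 2, and 3.76-fold at 9065 at a TTS. Dnajb6, which keeps aggregation-prone proteins soluble and is mutated in a human muscular dystrophy, had 4.96-fold at -456, in its promoter (chromosome 4, 2710710 to 2711148). Its other peak, of 4.5-fold, lay 101198 bp away. Dnajb14, a co-chaperone of the endoplasmic reticulum membrane, had a promoter peak of 4.0-fold at -77, and Dnajb2, known from neurons, had 2.71-fold at -747 and 3.71-fold at 320. Dnajb4 had 4.72-fold in an exon of a transcript that the annotation does not pair with a gene name, 12678 bp downstream of the TSS. Its other peak, of 2.57-fold in intron 3, lay 13626 bp downstream.

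Dnajb12, another co-chaperone of the endoplasmic reticulum membrane, had the most peaks of any member, 9, yet none near its TSS. Inside or at the end of the gene stood 3.85-fold at 15281, 5.11-fold at 15978 and 3.30-fold at 19023. Past the gene stood 2.67-fold at 20573, 4.26-fold at 26329 and 4.55-fold at 28600. Farther on stood 4.55-fold at 30025, 5.28-fold at 31732 and 3.05-fold at 32634. In the gene table its next neighbour is Ddit4, a stress-induced inhibitor of mTOR signalling, which had 19 peaks and up to 11.0-fold. The nearest Ddit4 peak began 618 bp after the last one named Dnajb12, so the peaks of both names follow each other closely. Which of them belong to which gene was not tested. Without Dnajb12 there were 68 member peaks, of which 44.1% stood within 1000 bp of the TSS.

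**Figure D5:**
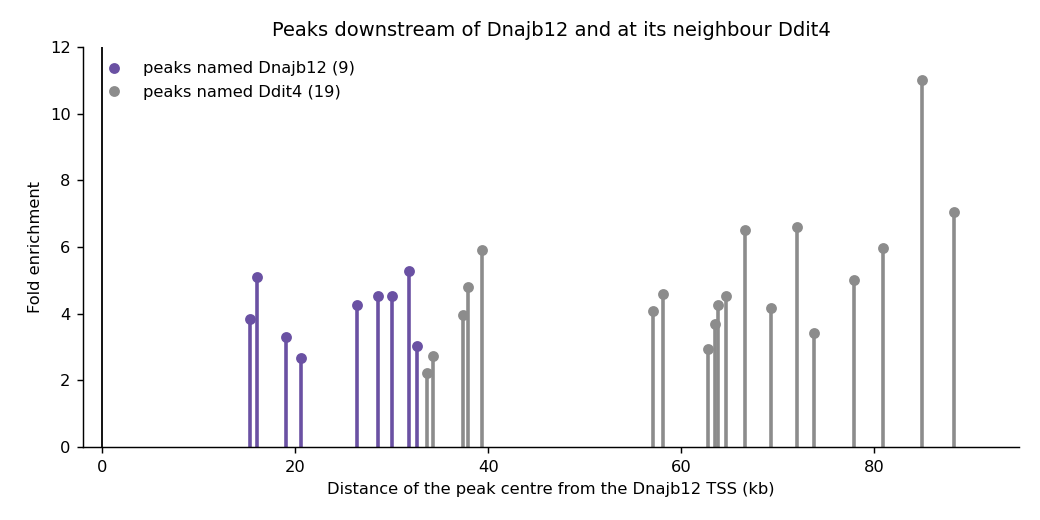
Fold enrichment (y axis) of the peaks named Dnajb12 and Ddit4 by distance of the peak centre from the Dnajb12 TSS (x axis, kb). The 9 Dnajb12 peaks stay at or under 5.28-fold. The 19 Ddit4 peaks start at 33.6 kb with 2.21-fold and reach 11.0-fold at 84.9 kb.

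DNAJA genes encode the co-chaperones most like bacterial DnaJ. Dnaja4 had 5.35-fold in exon 1 at 149 (chromosome 8, 59278263 to 59278559) and 3.64-fold in intron 2. Dnaja1 had a promoter peak of 3.66-fold from -444 to 24, and Dnaja2 had 3.49-fold in intron 1 at 206. Dnaja3, the mitochondrial member, had none. Among DNAJC genes, Dnajc3, an endoplasmic reticulum co-chaperone of BiP that restrains eIF2α kinases, had promoter peaks of 5.04-fold at 24 (chromosome 15, 104186474 to 104187158) and 3.74-fold at -571. Dnajc27, a RAS-like GTPase with a J domain, had 3.50-fold over its TSS. Dnajc14 had 3.12-fold at -509, in a peak classed as the promoter of its neighbour Tmem198b. Dnajc12 had 4.09-fold, 3791 bp upstream. The other 25 DNAJC names of the table had no peak, among them Dnajc5, the cysteine string protein of synaptic vesicles, and Dnajc7, Dnajc10, Dnajc13 and Dnajc19. Of DNAJB names, Dnajb3, Dnajb6-ps4, Dnajb7, Dnajb8, Dnajb9, Dnajb11 and Dnajb13 had none.

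Related chaperone genes outside the name rule are read against the 27.1% of all protein-coding genes with any peak and the 9.88% with a promoter peak, and with 4 to 12 genes a list no difference was tested. Of 4 heat shock factors, Hsf4 alone had a peak, with 5.92-fold at its promoter (chromosome 19, 37226021 to 37226317), and Hsf1, the main heat shock factor, had none. BAG exchange factors had promoter peaks at 4 of 6, Bag5 at 6.25-fold, Bag1 at 5.12-fold, Bag6 at 3.74-fold and Bag3 at 3.50-fold. Bag3, which pairs with HSPB8 in muscle, had 12 peaks, the strongest of 8.33-fold in an intron at 508 (chromosome 1, 199941211 to 199942128). Of 12 HSP90 co-chaperones 5 had peaks. Fkbp5, a glucocorticoid-induced gene, was strongest at 5.92-fold in an intron, and Cdc37l1 (3.17-fold) and Ptges3 (2.95-fold) had promoter peaks. Of 9 other HSP70 co-chaperones 5 had peaks, led by Grpel2 at 5.91-fold 30511 bp upstream of its TSS. Promoter peaks stood at Grpel2 (5.35-fold), Sgta (5.22-fold), St13 (3.69-fold) and Stub1 (3.07-fold). The CCT chaperonin, which folds actin and tubulin, had peaks at 2 of 8 subunits, near the share of all genes, and no promoter peak, with Cct2 strongest at 5.18-fold, 34157 bp from its TSS. Of 12 other chaperones 6 had a peak. The collagen chaperone Serpinh1 had 6.48-fold in an intron and 4.55-fold at the promoter, and Pdia3 (4.11-fold) and Canx (2.95-fold) had promoter peaks, while Hsp90b1 had none.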

How the data were processed

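ChIP-seq of rat myocardium after abdominal aortic constriction gave 1 ChIP library with a peak list and its annotation. Its input library had no values here. Tools named in the submitters' processing notes are Bowtie2, MACS2 and HOMER, beside FastQC, SAMtools, Trim Galore and deepTools, and the build is rn6. Their versions, and whether the input was the background, are not given in the sources used here. The deposited fold is a ratio to local background, and p and q were deposited on the −log10 scale. The score deposited beside them is the −log10 q times 10, cut to a whole number, and the annotation repeats it. The annotation's header holds a path with a q threshold of 0.05. The highest q among the peaks was 0.0493. Sequencing depth is unknown, so a gene with no peak had none at this depth and threshold.

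Members were found by name with Python 3.11.15 and pandas 2.3.3, and both files were joined by peak name. The members and lists were chosen with earlier results of these data known. Every HSP peak is given, and of DNAJ members those with a promoter peak, 3 or more peaks or 6-fold are given in full. Of each related list the gene with the strongest peak and those with promoter peaks are named. Groups of constitutive, inducible and small heat shock genes follow textbook roles, and the constitutive group also takes in genes listed as not heat-inducible. Names were matched to the 23154 protein-coding genes of a RefSeq table of GRCr8, used for names, neighbours and promoter sequences alone. Of 8094 names, 6132 matched a current and 141 an older symbol (77.5%). Unmatched names may include protein-coding genes, so every share over all protein-coding genes may be too low. No p-value was computed, since 1 library allows no test. The counting was tested on simulated data. Intervals (95%) cover counting error only, and peaks of 1 library are not replicates.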

Additional observations from a re-analysis of the deposited data

How the results depend on the processing

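Of 55 alternative values, 28 stayed as reported by the rule used (counts within 1.5 times, medians equal) and 27 moved. At −log10 q of at least 5, 16 family genes had a peak, 7 a promoter peak, and 26 member peaks were left. Median strongest folds were then 5.93 (HSP), 5.28 (DNAJ), 6.26 (constitutive), 5.93 (inducible) and 6.10 (small heat shock). At fold enrichment of at least 4, 11 family genes had a promoter peak and 40 member peaks were left, with medians of 5.80 (HSP), 5.0 (DNAJ), 6.26 (constitutive) and 5.39 (small heat shock). These medians are higher by construction, since weak peaks were dropped. With peaks of at least 300 bp the HSP median was 5.35 and the constitutive one 5.66. Within 10 kb of the TSS there were 50 member peaks and a small heat shock median of 5.39. Over all peaks of a group the medians were 3.78 (constitutive), 4.70 (inducible) and 4.34 (small heat shock). With Hspb1 counted as inducible, the inducible median was 5.93 and the small heat shock one 4.59. The next alternatives were chosen after seeing the data. Without Dnajb12 the DNAJ median was 4.09. Without peaks inside a transcript of another named gene the medians were 5.66 (HSP), 4.23 (DNAJ) and 6.10 (small heat shock). No paired analysis was possible because the input that shares number 3 with the ChIP library had no values here, and leaving out a replicate was likewise not possible. Unknown depth limits every statement on absent peaks.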
